A study of Mus musculus with 4 samples.

Results

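The genes described here are transcription factors that separate resting from effector T cells: Tcf7, Lef1, Satb1, Bach2, Myb, Bcl6, Prdm1, Tox, Tox2 and Zeb2. They were measured in splenic regulatory T cells (Treg cells, the Foxp3-expressing CD4 cells that hold back immune responses) of C57BL/6 mice. Members were all probe sets that the platform annotation assigns to 1 of these genes alone. It names 26 of the 45101 probe sets for 9 of the 10 genes, out of 18193 genes with a probe set of their own; it names none for Tcf7, which is therefore not analysed here. The series holds 4 arrays in 2 numbered pairs, each with 1 array labelled Foxo1/3-deficient and 1 labelled wild-type. The titles of the deficient samples name both Foxo1 and Foxo3, and their genotype field names Foxo1 alone. The sources used here do not give the animals' age, how or in which cells the genes were deleted, or whether each array stands for a different animal. p-values therefore measure only the spread between these arrays, which may be technical.

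Resting T cells keep a set of factors that hold effector genes silent and sustain survival and recirculation. Lef1 and its relative Tcf7 are DNA-binding partners of beta-catenin, Satb1 organises chromatin loops, and Bach2 competes with activating AP-1 factors at effector genes. When a T cell becomes an effector, Prdm1, which encodes the repressor Blimp-1, is induced, and in mice Prdm1 and Bcl6 repress each other. Myb, Tox, Tox2 and Zeb2 each act in particular differentiated states. Foxo1 and Foxo3 are forkhead factors that leave the nucleus when PI3K and AKT signal.

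The libraries differed in ways that bear on the labels. Foxo1 itself was higher on the arrays labelled deficient: its brightest probe set read 6949 and 6697 there, in pairs 1 and 2, against 2383 and 1254 on the wild-type arrays. Foxo3 read 1425 and 1308 against 1876 and 2635. Within both pairs Foxo1 thus ran opposite to the loss that the label names, while Foxo3 was lower, as the label names it. Foxo1 passed the threshold given below (log2 difference 1.97, limma adjusted p = 0.0209). Foxo3 did not (log2 difference -0.70, limma adjusted p = 0.241), so its lower signal is not a called difference. Whether labels were exchanged was not tested, and directions are given for the arrays as they are labelled. The sources used here do not say where these probe sets lie relative to the deleted part of either gene. The pairs also differed in sex-linked signals. Eif2s3y, a gene of the Y chromosome, read 4.01 (labelled-deficient) and 10.3 (wild-type) in pair 1, and 6414 and 5396 in pair 2. Xist, which females express, read 11497 and 83.1 on the labelled-deficient arrays and 11569 and 4589 on the wild-type arrays, so the wild-type array of pair 2 carried high Xist and Y-linked signals together. Results that pass the threshold are given without that array as well.

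Signals are MAS5 values on a linear scale, and all 4 arrays had a trimmed mean of 500.003, with medians of 83.4 and 72.7 (labelled-deficient) and 76.7 and 72.0 (wild-type). Groups were compared with limma on log2(signal + 17), so a fold change understates that of dim genes. Each gene was read from its brightest probe set, p-values were adjusted over all 12115 genes tested, and the threshold was an adjusted p of 0.05. With 2 arrays a group the smallest exact two-sided p is 0.333, so the limma p leans on variance shared across genes. The call of the same fit with the pair as a block is given where it differs for a factor or a listed gene. The blocked fit has 1 residual degree of freedom and takes 16.3 from the shared variance, against 2 and 5.69 without the block. Its p-values thus lean still more on that sharing. In RNA from many cells, fewer cells of a type and less RNA per cell cannot be told apart.

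Of the 9 factors tested, Bach2 rose and Prdm1 fell, where 2.57% of all genes were called in either direction (1.21% higher and 1.35% lower). With the pair as a block 7 of the 9 were called, against 11.6% of all genes (5.23% higher and 6.36% lower): Lef1, Satb1 and Bach2 were higher, and Myb, Bcl6, Prdm1 and Tox2 were lower. Tox and Zeb2 were called by neither fit. The arrays of the 2 groups did not overlap for 6 of the 9 factors, 3 above and 3 below, where 41.1% of all genes showed no overlap. Of the 9 factors 4 had a log2 difference above 0 and 5 below. Their median was -0.37, which is the value of Zeb2, against 0.00 over all genes.

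**Figure D1:**
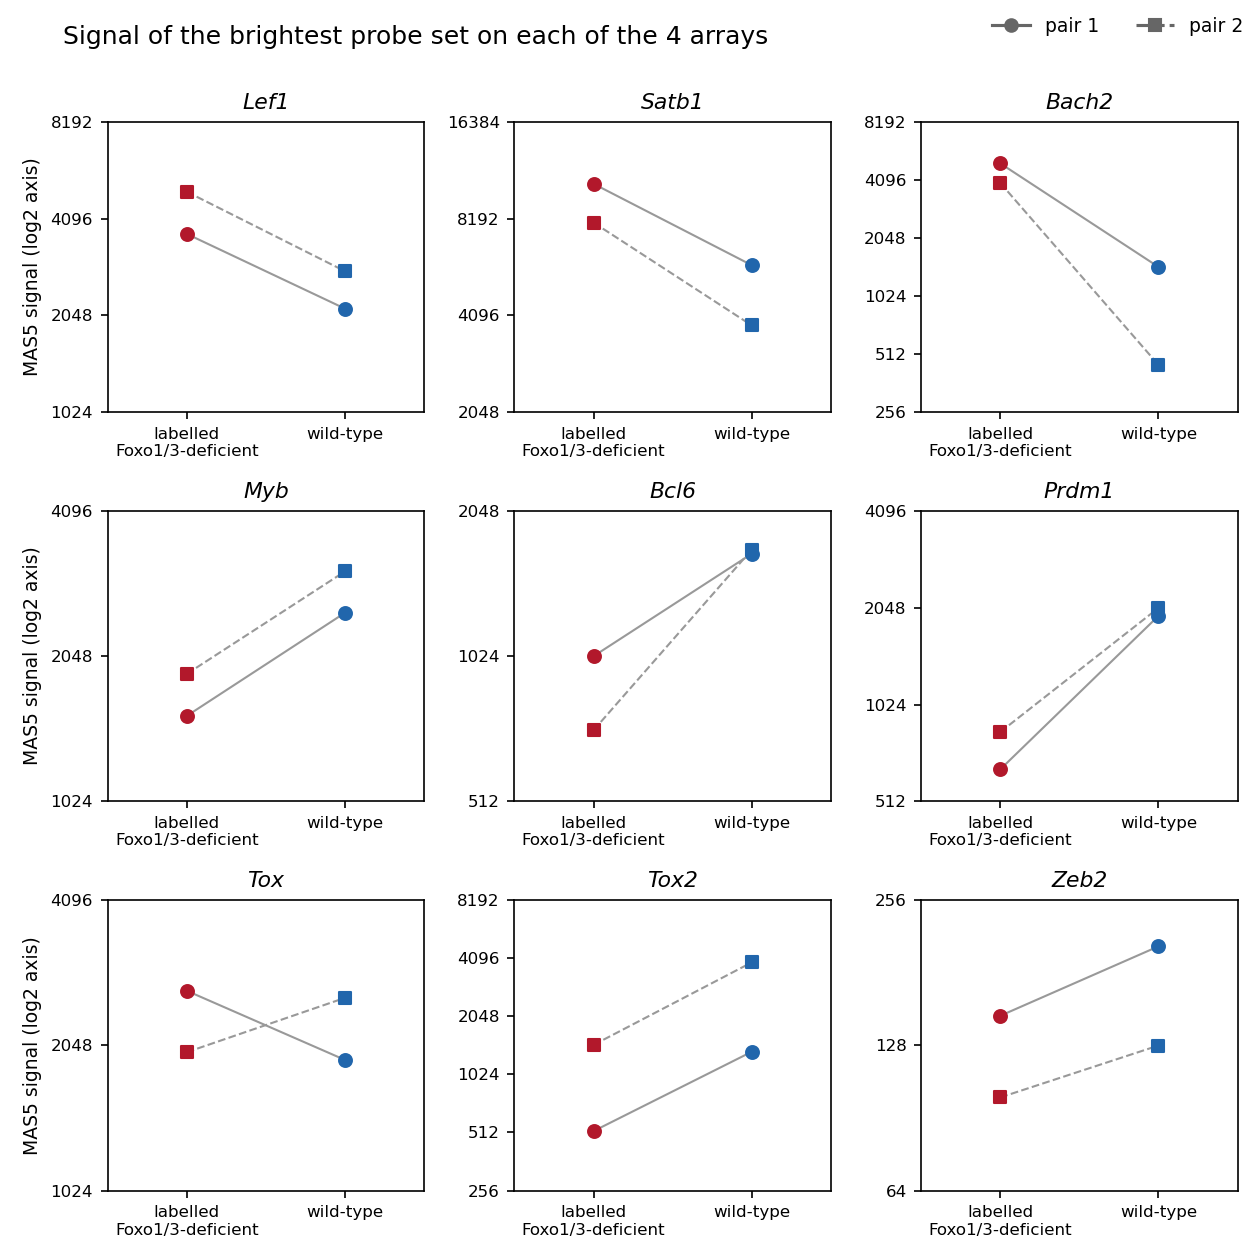
Signal of the brightest probe set of each of the 9 factors (vertical axes, MAS5 signal on a log2 axis whose range differs by panel) on the labelled Foxo1/3-deficient (red) and wild-type (blue) arrays; circles joined by a solid line are pair 1 and squares joined by a dashed line are pair 2. Bach2 drops steeply towards the wild-type arrays, Prdm1 climbs towards them, the lines of Tox cross, and those of Tox2 run parallel but far apart.

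Bach2, a repressor that keeps T cells from effector differentiation and is also made by B cells, was the factor with the largest rise. Its brightest probe set (1436515_at) read 4982 and 3945 on the labelled-deficient arrays of pairs 1 and 2, against 1449.8 and 451 on the wild-type arrays. Both labelled-deficient arrays lay above both wild-type arrays, and the wild-type arrays stood 3.22-fold apart from each other. The log2 difference was 2.43 ± 0.47 (SE, n = 2 arrays a group; limma adjusted p = 0.0450), a 5.37-fold rise and the 33rd highest difference among the 12115 genes. Within a pair the ratio of labelled-deficient to wild-type was 3.44 in pair 1 and 8.75 in pair 2. Bach2 was also the only factor at least 2-fold higher within both pairs, as 2.06% of all genes were. Another probe set (1437667_a_at) read 4201 and 3609 against 1338 and 329, with ratios of 3.14 and 11.0, and the dimmer one (1445460_at) read 223 and 177 against 141 and 69.0. All 3 probe sets thus separated the groups in the same direction.

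The call for Bach2 was close to the threshold. Without the wild-type array of pair 2 the log2 difference was 1.60 (limma adjusted p = 0.00546), still past the threshold. Without the labelled-deficient array of pair 1 it was 2.26 and missed the threshold (limma adjusted p = 0.0789). Over all 27022 probe sets past the filter on dim signals, the adjusted p of its probe sets was 0.0593, 0.0820 and 0.482.

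Summed signals of B cell markers were 3687 and 2669 on the labelled-deficient arrays and 3856 and 1709 on the wild-type arrays, over the 9 of 10 markers with a probe set. These sums overlap between the groups, where Bach2 does not, but they share with Bach2 the lower value on the wild-type array of pair 2. Among the markers Ms4a1, which encodes CD20, read 1611 and 998 against 1081 and 423, and Cd79a read 163 and 69.3 against 197 and 26.1. Pax5, the B cell identity factor, was under the filter on dim signals. It read 44.7 and 40.2 against 17.7 and 7.4, without overlap, and was lowest on the wild-type array of pair 2. None of the 8 B cell markers tested passed (limma; 0 higher and 1 lower at an unadjusted p under 0.05). With the block Ms4a1 was higher (log2 0.89, limma adjusted p = 0.00494) and Cd22, a B cell receptor inhibitor, lower (log2 -0.75, limma adjusted p = 0.0266). The part of these cells in the Bach2 signal was not tested. By the root-mean-square distance of centred log2 signals over the 4 arrays, the genes most like Bach2 were H2-Ob, at 0.11, then Card6 and Mapk12. H2-Ob, which encodes a chain of an MHC class II modulator found in B cells, read 1546 and 1488 against 489.6 and 158.

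The promoter of Bach2 is shown because it belongs to the factor that rose most. These are the 250 bases before its start site in RefSeq (GRCm38.p6, chr4:32417185-32417434, plus strand), written 5′ to 3′, and they hold neither of the motifs searched for, given below, so no letters are in capitals.
Bach2: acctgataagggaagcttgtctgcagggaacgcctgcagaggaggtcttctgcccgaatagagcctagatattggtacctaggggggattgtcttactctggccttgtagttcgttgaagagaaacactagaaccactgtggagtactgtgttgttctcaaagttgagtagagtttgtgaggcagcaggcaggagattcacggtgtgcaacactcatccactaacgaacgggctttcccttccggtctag

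Satb1, the chromatin organiser of resting T cells, was higher by less and on every one of its 5 probe sets. The brightest read 10506 and 7961 on the labelled-deficient arrays against 5870.2 and 3816 on the wild-type arrays, with no overlap. Its log2 difference was 0.95 ± 0.25 (SE), a 1.93-fold difference that missed the threshold (limma adjusted p = 0.118) and passed with the pair as a block (0.000383). Another probe set read 8347 and 7451 against 4659 and 4677. Over these 2 probe sets the gap within a pair ran from 1.59-fold to 2.09-fold. The other 3 probe sets also lay above the wild-type arrays on both labelled-deficient arrays, with log2 differences between 0.64 and 1.41. The smallest ratio within a pair was that of 1439449_at, 1.13 in pair 1 against 2.56 in pair 2. Satb1 passed without the wild-type array of pair 1 (log2 1.26, limma adjusted p = 0.0105).

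Lef1 differed in the same direction as Satb1 and by a similar amount. Its brightest probe set read 3671 and 4964 on the labelled-deficient arrays, against 2151 and 2812 on the wild-type arrays. Both labelled-deficient arrays were higher, and within a pair the ratio was 1.71 in pair 1 and 1.77 in pair 2. The log2 difference was 0.79 ± 0.24 (SE; limma adjusted p = 0.168, and 0.00154 in the blocked fit). The other Lef1 probe set (1421299_a_at) read 765 and 333 against 377 and 119. Here the groups overlapped, because both arrays of pair 1 were higher than those of pair 2, while the ratio within a pair was 2.03 in pair 1 and 2.81 in pair 2. The brighter probe set had the opposite order of the pairs in both groups, so the difference between pairs did not run one way for Lef1.

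Across these 3 factors of resting cells, all 10 probe sets were higher on the labelled-deficient array within both pairs. For 9 of the 10, both labelled-deficient arrays lay above both wild-type arrays. So did 19.2% of all probe sets, a share that includes those under the filter on dim signals. All 10 here had passed that filter. In the fit over probe sets none of the 10 passed (limma), whereas 7 did in the blocked fit. Those fits called 0.633% and 2.52% of all probe sets higher. At an unadjusted p under 0.05 (limma) 8 of the 10 were higher. No share of all probe sets was counted at that unadjusted p or for a rise within both pairs. Over genes 5.93% were higher at that p. Probe sets of 1 gene share that gene's RNA and are not separate results.

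**Figure D2:**
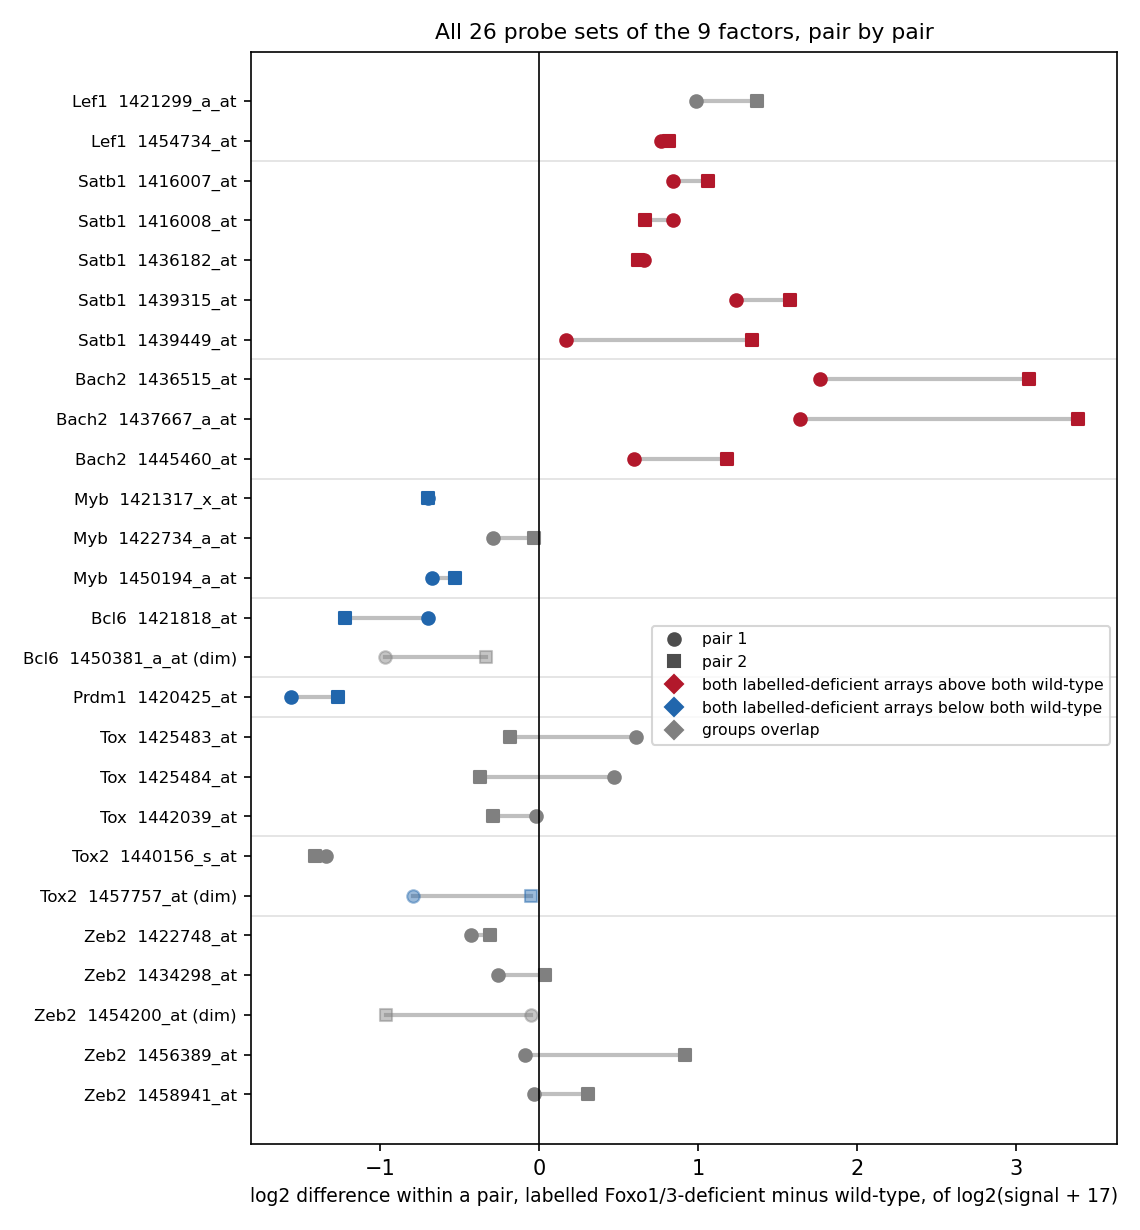
Log2 difference within pair 1 (circles) and pair 2 (squares), labelled Foxo1/3-deficient minus wild-type on the log2(signal + 17) scale, for all 26 probe sets of the 9 factors; red marks probe sets with both labelled-deficient arrays above both wild-type arrays, blue those below, grey overlap, and pale symbols the 3 probe sets under the filter on dim signals. All 10 probe sets of Lef1, Satb1 and Bach2 lie right of 0 in both pairs, and those of Tox and Zeb2 lie on both sides.

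Prdm1 had the largest fall of the 9. Its only probe set (1420425_at) read 644 and 841 on the labelled-deficient arrays against 1931 and 2044 on the wild-type arrays. The groups were far apart compared with the gap inside each of them, which was 1.31-fold among the labelled-deficient and 1.06-fold among the wild-type arrays. The log2 difference was -1.41 ± 0.24 (SE; limma adjusted p = 0.0288), 2.66-fold lower and the 175th lowest of 12115. The wild-type array read 3.00-fold higher in pair 1 and 2.43-fold higher in pair 2. Prdm1 and Tox2 were the factors at least 2-fold lower within both pairs, as 2.32% of all genes were. Prdm1 was the single member probe set called in the fit over probe sets (limma adjusted p = 0.0459), where 0.529% of all probe sets were called lower. That probe-set call was lost without any 1 of the 4 arrays (limma adjusted p from 0.0586 to 0.203; 0.105 without the wild-type array of pair 2). With the block 4 member probe sets were lower, 1 each of Myb, Bcl6, Prdm1 and Tox2, against 2.61% of all. Over genes, without the wild-type array of pair 2 the difference was -1.37 (limma adjusted p = 0.0357), and without the labelled-deficient array of pair 1 it was -1.22 and missed the threshold (limma adjusted p = 0.144).

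Prdm1 is also the defining repressor of plasma cells, so their markers were read beside it. Summed over 6 markers they were 7978 and 11237 on the labelled-deficient arrays and 8469 and 11787 on the wild-type arrays, higher in pair 2 in both groups. Jchain, the joining chain of secreted antibodies, read 1332 and 3291 against 1274 and 1934, and Sdc1 stayed at or under 52.9. Xbp1, a secretory factor that is also on the list of effector T cell factors below, made up most of each sum, at 6034.5 and 7259 against 6619 and 9264. Without it the other 5 summed to 1943 and 3978 against 1849.9 and 2523. None of the 5 plasma cell markers tested passed (limma; 0 also at an unadjusted p under 0.05). Both sums overlap between the groups, where Prdm1 does not. The part of plasma cells in the Prdm1 signal was not tested. The genes nearest to Prdm1 over the 4 arrays were Trafd1, at a distance of 0.051, Trip13 and Rnf43. Trafd1 read 716 and 848 against 1997 and 2115.

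The promoter of Prdm1 is shown because Prdm1 fell most and its window holds the FoxO recognition motif. These are the 250 bases before the start site (RefSeq, GRCm38.p6, chr10:44458749-44458998, minus strand), 5′ to 3′ on the gene's strand, with the motif in capitals.
Prdm1: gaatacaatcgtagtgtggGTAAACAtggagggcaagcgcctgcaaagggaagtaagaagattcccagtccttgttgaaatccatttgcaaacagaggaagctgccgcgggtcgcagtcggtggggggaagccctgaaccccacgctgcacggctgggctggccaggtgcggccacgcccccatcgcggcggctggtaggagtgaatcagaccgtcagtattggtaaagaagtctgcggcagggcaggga
The match begins 231 bases before the start site. The motif searched was GTAAACA on both strands, in windows from 250 bases before to 50 after each start site. It stood in 3 of the 25 windows of the listed genes, 1 each of Prdm1, Myb and Tcf7, and in 3.65% of all 32851 windows. The TCF and LEF motif CTTTGAT, also on both strands, stood in 2 overlapping windows of Tox2 and in 3.73% of all windows. A match is a description of these letters and shows no binding, and the table holds windows for 9 of the 10 genes.

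Bcl6, the factor of follicular T cells that represses Prdm1 in mice, was lower on the same arrays as Prdm1. Its bright probe set read 1023 and 719 on the labelled-deficient arrays against 1668 and 1700.2 on the wild-type arrays. The groups did not overlap, and the wild-type values were close together. The log2 difference was -0.96 ± 0.25 (SE), 1.94-fold lower (limma adjusted p = 0.110, and 0.00137 in the blocked fit). Another Bcl6 probe set was under the filter on dim signals, at 39.96 and 5.43 against 94.9 and 11.2, lower within both pairs but with groups that overlapped. Both members of this mutually repressing couple thus read lower on the labelled-deficient arrays, with Bcl6 past the threshold only with the block.

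Myb, a factor that mouse effector Treg cells need, was lower by an amount that hardly varied between pairs. Its brightest probe set (1421317_x_at) read 1539 and 1881 on the labelled-deficient arrays against 2517 and 3067 on the wild-type arrays, with no overlap and ratios of 0.612 and 0.613. The log2 difference was -0.70 ± 0.22 (SE; limma adjusted p = 0.194, and 0.00503 in the blocked fit). The suffix of that probe set marks probes that may also match other transcripts. A Myb probe set without that suffix (1450194_a_at) read 637 and 728 against 1023 and 1058, also without overlap (log2 -0.60 ± 0.25, limma adjusted p = 0.443 over probe sets). The dim one (1422734_a_at) read 202 and 136 against 252 and 139.7, where the groups overlapped.

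Tox2, an HMG-box factor of follicular T cells, had a constant ratio on top of a large difference between pairs. It read 519.8 and 1453 on the labelled-deficient arrays of pairs 1 and 2, against 1339 and 3886 on the wild-type arrays (1440156_s_at). The labelled-deficient array of pair 2 was brighter than the wild-type array of pair 1, so the groups overlapped. Within a pair the ratio was 0.388 in pair 1 and 0.374 in pair 2, and pair 2 over pair 1 was 2.80 among the labelled-deficient and 2.90 among the wild-type arrays. The log2 difference of -1.37 ± 0.58 (SE) missed the threshold (limma adjusted p = 0.369). It was -2.14 without the wild-type array of pair 1 and -0.61 without that of pair 2. Each of these fits sets 1 wild-type array of 1 pair against both pairs, so the difference between pairs enters its value. In the blocked fit on all 4 arrays the SE of Tox2 was 0.17 and Tox2 passed (limma adjusted p = 1.61e-05). Pair 2 was higher than pair 1 by log2 1.49 in that model (limma adjusted p = 6.95e-05), where 6.78% of all genes differed between pairs. The Y-linked signals and Tox2 were both high in pair 2, and over 2 pairs the Y-linked signals and the pair cannot be told apart. Xist differed within pair 2, at 83.1 (labelled-deficient) and 4589 (wild-type), so that pair was not of 1 kind. The other Tox2 probe set was under the filter, at 7.35 and 8.56 against 25.1 and 9.39.

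Tox, the relative of Tox2 that acts in CD4 T cell development and in chronically stimulated T cells, differed in opposite directions in the 2 pairs. It read 2655 and 1981 on the labelled-deficient arrays against 1909.5 and 2566 on the wild-type arrays. The ratio was 1.39 in pair 1 and 0.772 in pair 2, and the groups overlapped. The log2 difference was 0.05, with a 95% interval from -0.53 to 0.63 (limma adjusted p = 0.984), an interval that leaves out a 2-fold difference either way but not smaller ones. The other 2 Tox probe sets overlapped too, with log2 differences of 0.21 and -0.16. The ratio of Tox changed sides between the pairs, where that of Tox2 did not; the difference between these 2 genes was not tested.

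Zeb2, a repressor that works with T-bet in terminally differentiated cytotoxic cells, was dim throughout. Its 5 probe sets read between 2.94 and 205 on the 4 arrays, and 4 of them passed the filter. The brightest read 147 and 99.8 on the labelled-deficient arrays against 205 and 128 on the wild-type arrays. Its log2 difference was -0.37 ± 0.37 (SE; limma adjusted p = 0.810), with a 95% interval from -1.22 to 0.48, which holds a 2-fold fall. The 4 probe sets disagreed in sign, from -0.37 to 0.42.

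Other genes of the same biology were read from lists to place the 9 factors. Over all genes 1.21% were called higher and 1.35% lower, and 5.93% and 7.05% at an unadjusted p under 0.05. Of 15 further factors of resting T cells, 6 rose and 0 fell (limma; 6 and 1 unadjusted; 6 and 1 with the block, the 1 being Gfi1 at log2 -0.77), with a median log2 difference of 0.21. They were Id3, an inhibitor of E proteins (7.19-fold), Foxp1, a forkhead factor of T cell quiescence (4.58-fold), Foxo1 itself, Klf3, Tsc22d3 and Klf2. Foxp1 read 4717 and 3925 on the labelled-deficient arrays against 1347 and 634.5 on the wild-type arrays. Factors of that list that all T cells keep did not pass: Ets1 differed by log2 0.23 ± 0.15 and Bcl11b by 0.01 ± 0.16 (SE). Of 19 further effector factors 5 fell and 0 rose (limma; 9 and 0 unadjusted; 10 and 1 with the pair as a block), with a median of -0.64. They were Bhlhe40, a factor of cytokine-producing T cells (4.53-fold lower), Tbx21, Eomes, Id2 (2.64-fold lower), which opposes E proteins in effector cells, and Maf. Only with the block were Batf, Rora, Rbpj, Hopx and Runx3 called lower and Irf4 higher (Irf4 log2 0.61, limma adjusted p = 0.0364). Without the wild-type array of pair 2, Tsc22d3 (limma adjusted p = 0.0661) and Maf (limma adjusted p = 0.0505) no longer passed, and the other 5 resting and 4 effector factors did.

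Of 9 surface and marker genes of resting T cells, 8 rose and 0 fell (limma; 9 and 0 unadjusted, and also with the block, which adds Cd27 at log2 0.64), with a median log2 difference of 2.13. Il6ra, the interleukin-6 receptor chain (6.15-fold), and Il6st, its signalling partner (2.62-fold), were among these 8. Of 14 effector genes 9 fell and 0 rose (limma; 9 and 1 unadjusted), with a median of -1.51. The cytokine gene Il10, which Blimp-1 is known to sustain in mouse Treg cells, was dim at 310.3 and 204 against 328 and 249 and differed by log2 -0.17 ± 0.33. Of 8 follicular T cell genes 1 rose, Slamf6, a receptor of stem-like and follicular T cells, at 2552 and 2274 against 634 and 548, and 1 fell, Pdcd1. Pdcd1 is on the effector list too, and is 1 of the 9 effector genes that fell. All 8 surface genes, all 9 effector genes, Slamf6 and Pdcd1 still passed without the wild-type array of pair 2. The follicular receptor gene Cxcr5 read 501 and 831 against 705 and 720.0, with groups that overlapped, and Il21 read 8.23 and 80.5 against 237 and 312 (limma adjusted p = 0.0798, and 0.000322 in the blocked fit), so that 2 follicular genes were lower with the block. These lists were chosen with earlier results of these data known.

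**Figure D3:**
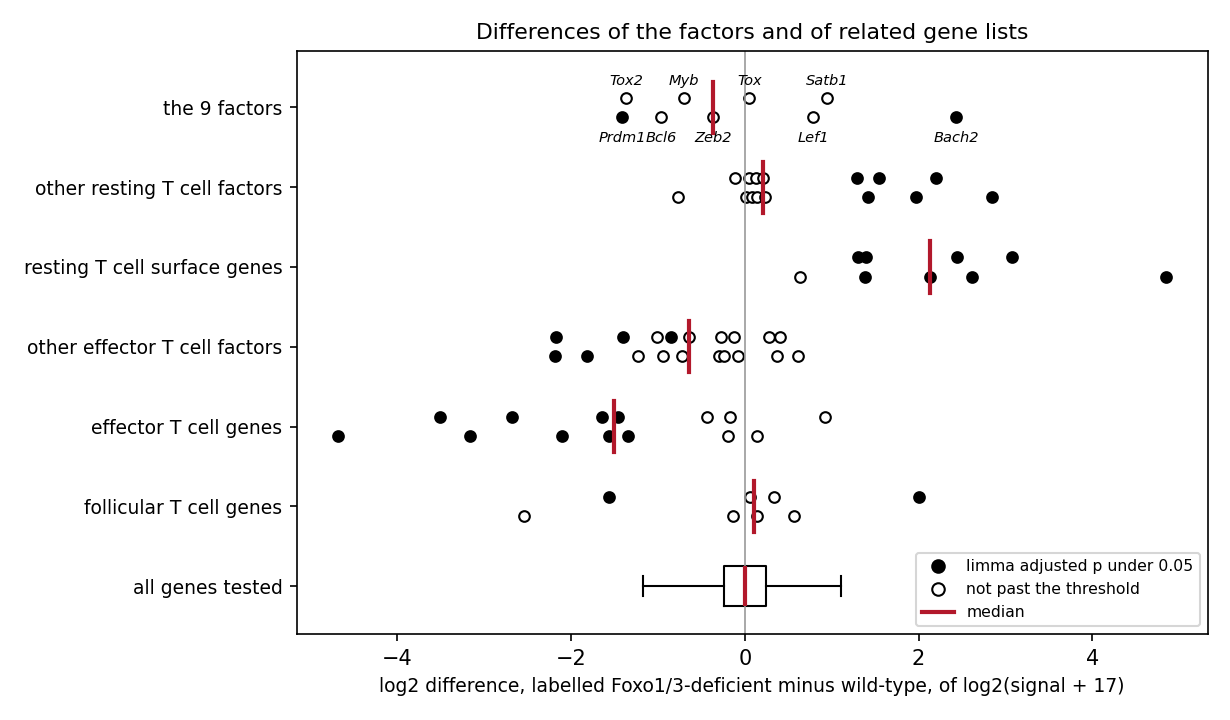
Log2 difference, labelled Foxo1/3-deficient minus wild-type on the log2(signal + 17) scale, of the 9 factors, of 5 related gene lists and of all 12115 genes tested (box: quartiles; whiskers: central 95%); filled points passed an adjusted p of 0.05 in limma and red bars are medians. The 9 factors spread from Prdm1 at -1.41 to Bach2 at 2.43 around a median of -0.37, while resting surface genes sit at a median of 2.13 and effector genes at -1.51.

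The cells carried Treg cell transcripts on all 4 arrays. The 10 Treg and T cell markers summed to 61262.5 and 61994 on the labelled-deficient and 60936.5 and 66574 on the wild-type arrays, and none of the 10 passed (limma; 0 also at an unadjusted p under 0.05). CD8 T cell markers summed to 423 and 663 against 517.5 and 367, over 2 genes. Natural killer cell markers summed to 1442 and 1658 against 1936 and 663 over 6 genes, with Ncr1, their defining receptor, at or under 37.2. Myeloid markers summed to 8989.6 and 6735.5 against 7099.9 and 4496 over 10 genes, of which Csf1r alone gave 6676 and 5165 against 4749 and 2987, higher in the blocked fit (limma adjusted p = 0.0101) and not without the block (0.356). Zeb2, which myeloid cells also make, was lower in pair 2 within each group on its brightest probe set, as the myeloid sum was. Within both pairs the myeloid sum was higher on the labelled-deficient array, where that Zeb2 probe set was lower. The part of myeloid cells in the Zeb2 signal was not tested. Dendritic cell markers summed to 1603.5 and 1295 against 1828 and 1278 over 7 genes, and erythroid markers to 489 and 363 against 325 and 425 over 4. For each of these lists the sums of the 2 groups overlap.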

How the data were processed

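Total RNA from splenic Treg cells was labelled with biotin for Affymetrix arrays, per the labels' protocols. The deposited values are linear probe-set intensities, which the submitters' processing notes credit to MAS5; the sources used here give neither its version nor its settings, and detection calls were not used here. All 4 arrays share 1 trimmed mean, so their scale is settled; nothing shows gene centring. The number of arrays limits the precision.

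Probe sets were named from the platform annotation, which can be old: 34945 carried 1 symbol, 932 several and 9160 none. The pseudocount before taking log2 was 17 (the 25th percentile of the signals). Probe sets with a mean log2 value below the 40th percentile, near a signal of 40, were dropped, which kept 23 of the 26 member probe sets. The test was that of limma 3.58.1 (R 4.3.3; lmFit, and eBayes with trend on), two-sided and adjusted by Benjamini-Hochberg, over 12115 genes and separately over 27022 probe sets. The scripts were tested on simulated data.

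The titles number the pairs, and same-numbered arrays deviated together from their group means (Pearson r = 0.367 across genes, which are not independent replicates, over 2 pairs). A fit blocked on the pair was an alternative. All 9 factors were named with all their probe sets; of a list, genes past the threshold were named, at most 6, largest first, and those already described elsewhere only counted. Cd79a, Pax5, Ms4a1, Cd22, Gfi1, Cd27, Irf4, Batf, Rora, Rbpj, Hopx, Runx3, Xbp1, Jchain, Sdc1, Ncr1, Csf1r, Il10, Cxcr5, Il21, Ets1, Bcl11b and the sex-linked genes fall outside that rule and were picked after their values were seen. Members and lists were chosen with earlier results of these data known. Promoter windows came from RefSeq (GRCm38.p6).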

Additional observations from a re-analysis of the deposited data

How the results depend on the processing

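Of 116 alternative values for the 9 genes, 99 kept their direction and their side of the threshold, 7 passed that had not, 7 no longer passed and 3 changed sign. Of 248 for the probe sets, 211 kept both, 19 passed, 8 no longer passed and 10 changed sign. Without the filter 0 factors were higher and 0 lower, with 45 and 44 calls over all genes and 0 member probe sets lower. Without the intensity trend the same counts were 0 and 0, 57 and 54, and 0. With the pair as a replicate block they were 3 higher and 4 lower, 634 and 770 over all genes, and 7 and 4 member probe sets. With the mean of a gene's probe sets 0 factors were higher (Bach2, limma adjusted p = 0.0819). Member probe sets lower numbered 0 with a pseudocount of 1 and with quantile normalization, and 1 was higher with the median as pseudocount. When 1 array was left out, factors higher and lower each numbered between 0 and 2, calls over all genes 67 to 278 higher and 82 to 266 lower, and member probe sets 0 to 4 higher and 0 to 1 lower. The lowest counts of factors came without labelled-deficient replicate 1, and the highest without wild-type replicate 1 (2 and 2). Those alternatives gave, for lists tried after seeing the data, 4 to 6 resting factors and 5 to 8 resting surface genes higher, 3 to 7 effector factors and 8 to 9 effector genes lower, and 1 follicular gene higher and 0 to 2 lower. Leaving out 1 array turned the sign of Tox (-0.16 to 0.26; probe sets -0.14 to 0.57, -0.16 to 0.26 and -0.42 to 0.11), of the dim Myb probe set (-0.55 to 0.23) and of 2 Zeb2 probe sets (-0.63 to 0.42 and -0.29 to 0.57). The mean of its probe sets put Zeb2 at 0.02. The cause of these shifts was not tested. Dim signals limit Zeb2 and the lesser probe sets of Bcl6 and Tox2.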
